A study of Mus musculus with 24 samples.

Results

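Radiation combined with olaparib was compared with sham treatment in mouse squamous cell carcinoma tumours that carried an empty vector. The comparison holds 6 of the 24 tumours of the study, 3 in each group, and they were chosen by the letters before the hyphen in the coded identifier of each tumour. Tumours IO-726, IO-728 and IO-731 (code IO) form the combination group, and S-758, S-759 and S-761 (code S) form the sham group. SCC7, a mouse squamous carcinoma line, was injected under the skin of the rear flank of female C3H mice aged 6 to 8 weeks, at about 1000000 cells a mouse, and treatment started once tumours averaged about 300 mm3. The combination group received X-rays at 8 Gy a fraction on each of 3 days, aimed at the tumour behind lead shielding. Olaparib was injected into the peritoneum at 50 mg/kg 2 h before each fraction and again on the day after the last one. The sham group received neither agent by its code, and the time between the last treatment and tumour collection is not given in the sources used here. All 6 tumours share the parent cell line and the host strain and, by their code, the empty vector, so they stand for a single transplanted line under the skin. Further groups of 3 tumours were used for side by side values: radiation alone (code I) and olaparib alone (code O) in vector tumours, and the combination (EIO) and sham (ES) in tumours of SCC7 cells made to overexpress miR-21-5p.

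The identifier and the written treatment label named different groups for 19 of the 24 tumours, and for all 6 of this comparison. By the written labels IO-726 was a vector tumour given radiation, IO-728 a vector sham tumour, and IO-731 an irradiated, olaparib-treated tumour without the vector mark. By the same labels S-758 was a sham tumour without the vector mark, S-759 a vector tumour given the combination, and S-761 a vector tumour given olaparib. The batch label only restates the written treatment, and the written cell type reads as the miR-21-5p line for all 24 tumours, so the vector status of these tumours comes only from the code. Every direction below therefore rests on the code. When the vector combination and vector sham groups were instead formed from the written labels, 0 genes were called by edgeR's quasi-likelihood test, with 1967 genes at an unadjusted p under 0.05, and of the genes called by code 46.9% kept their sign.

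Ionising radiation breaks DNA strands and stabilises p53, a transcription factor that induces the cell cycle inhibitor Cdkn1a and its own antagonist Mdm2. Arrested cells silence replication and mitosis genes through repressor complexes on E2F and CHR promoter elements. Olaparib inhibits and traps PARP1, the enzyme that marks single-strand breaks and also takes part in alternative end joining, the error-prone joining of double-strand breaks by polymerase theta, DNA ligase 3 and Xrcc1. Squamous carcinomas also hold macrophages, T cells and stroma, and in whole-tumour RNA fewer cells of a type and less RNA per cell cannot be told apart.

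Library totals of the 6 tumours lay between 37727884 and 39514018 counts, close to each other, and levels are given as CPM, the counts of a gene scaled to a library of 1000000 counts, after TMM scaling. Sets of 3 values run in the order IO-726, IO-728, IO-731 and S-758, S-759, S-761. Log2 fold changes are combination over sham, given ± SE, and the threshold for a call was 0.05 on the p-value adjusted by Benjamini-Hochberg over the 16560 genes tested. Tumour S-761 stood apart from the other sham tumours. The chi-square per gene between its counts and theirs was 185 and 191, against 34.5 between S-758 and S-759, and 63.4 to 123 among the combination tumours. Its TMM factor was 0.867 and those of the other 5 were 0.981 to 1.016. Its ribosomal protein genes summed to 48520 CPM, against 28340 CPM in S-758 and 24940 CPM in S-759, and its mast cell markers summed to 14.8 CPM, against 161 and 182 CPM. In the radiation group I-739 stood apart, with a chi-square per gene of 329.8 and 444 against the others and 162 between them. In the miR-21-5p line EIO-744 stood apart, with 3.51% of its counts from the collagen gene Col3a1.

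Between the combination and sham tumours 2126 genes were called, which is 12.8% of those tested. Of these, 873 were higher (5.27%) and 1253 lower (7.57%) under the combination, and the median log2 fold change of all genes was 0.05. The 3 tumours of a group did not overlap those of the other for 41.3% of all genes, 21.3% higher and 20% lower. Counts of calls and of genes without overlap in each list below are to be read against these shares. Counts of calls depended on single tumours. Calls higher and lower numbered 83 and 72 without IO-726, 774 and 900 without IO-728, 82 and 61 without IO-731, 370 and 557 without S-758, 779 and 1188 without S-759, and 85 and 122 without S-761. Without I-739, a tumour outside the comparison that shares in the estimate of spread, 1227 were called higher and 1691 lower. All 2126 genes kept their sign in each of the fits without 1 of the 6 tumours. In the 6 fits 96 of the genes were called every time, 46 higher and 50 lower. Of these 96, 15 belong to the list of cholesterol synthesis genes and 7 to the list of p53 targets.

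**Figure D1:**
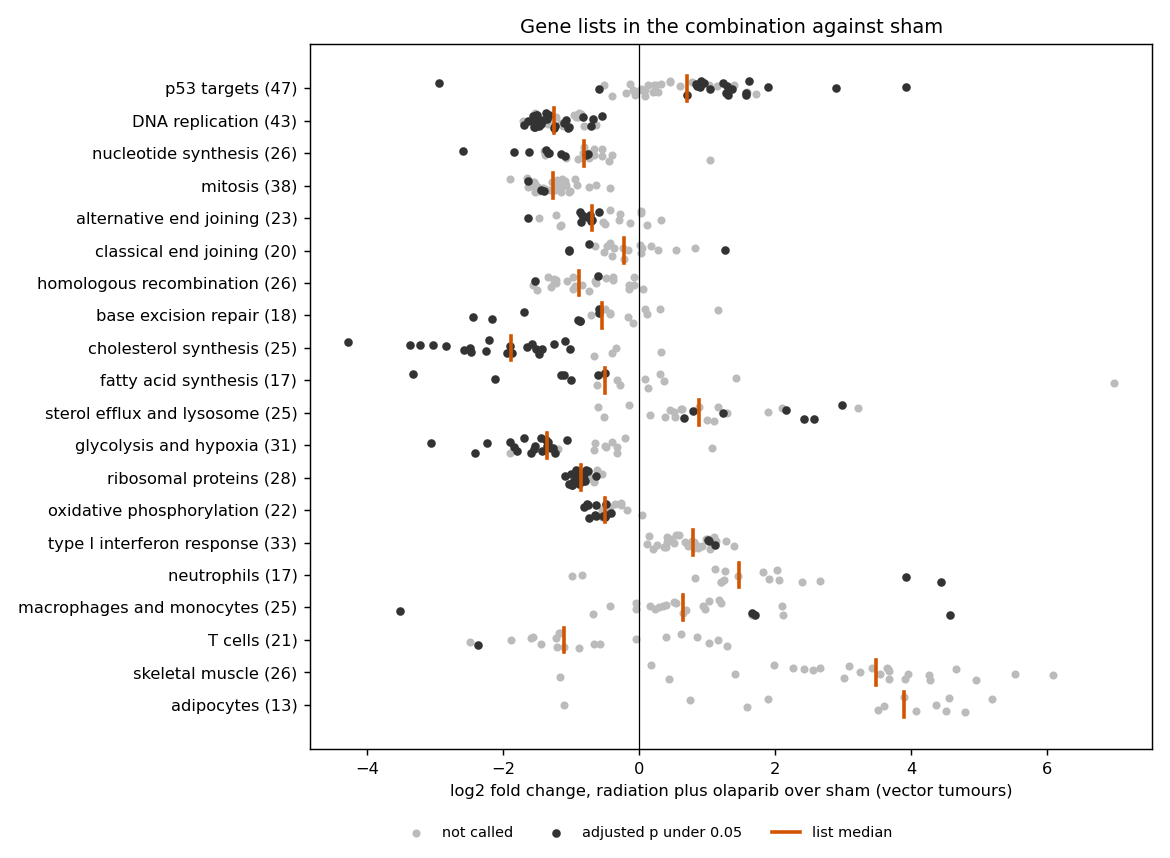
Each point is 1 gene of a list, placed by its log2 fold change of the combination over sham in vector tumours (3 tumours a group), with the number of tested genes beside the list's name; dark points were called and the orange bar is the list's median. The cholesterol synthesis list has the lowest median shown, -1.88, and the p53 target list a median of 0.70.

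Target genes of p53 were higher under the combination. Of the 47 tested, 18 were called higher and 2 lower, against 5.27% and 7.57% of all genes. The median log2 fold change was 0.70, and 24 showed no overlap between the groups in the higher direction, against 21.3% of all genes. Cdkn1a, which encodes the cell cycle inhibitor p21 (chromosome 17, 29090979 to 29100722, GRCm38.p6), had 713.1, 682 and 765 CPM in the combination tumours, against 299.7, 229 and 197 CPM in the sham tumours (log2 fold change 1.57 ± 0.24, edgeR adjusted p = 0.0029). Every combination tumour was above every sham tumour for it. Mdm2, the ubiquitin ligase that degrades p53, had 450.3, 439 and 457 CPM in the combination tumours, against 191, 169.8 and 94.6 CPM in the sham tumours (log2 fold change 1.56 ± 0.39, edgeR adjusted p = 0.018). Its sham tumour S-761 was the lowest of the 6. Trp53inp1, a p53-induced gene of cell death and autophagy, showed a larger change, with 220.2, 104 and 191 CPM under the combination and 31.9, 24.9 and 12.5 CPM under sham (log2 fold change 2.89 ± 0.48, edgeR adjusted p = 0.0036). The death receptor gene Fas had 26.0, 20.1 and 25.3 CPM under the combination and 6.36, 7.47 and 5.32 CPM under sham (log2 fold change 1.90 ± 0.34, edgeR adjusted p = 0.0057), and its groups did not overlap. Gdf15, a secreted stress cytokine, had 8.40, 8.57 and 6.80 CPM under the combination and 0.417, 1.03 and 0.0917 CPM under sham (log2 fold change 3.93 ± 0.81, edgeR adjusted p = 0.0097). Bbc3, which encodes the cell death protein PUMA, was called higher (log2 fold change 1.36 ± 0.32), as were the stress gene Sesn2 (1.31 ± 0.22), Zmat3 (1.05 ± 0.18), Ccng1 (1.23 ± 0.19) and Phlda3 (0.70 ± 0.16). The antiapoptotic gene Bcl2l1 was also called higher (0.83 ± 0.26). Other cell death genes were not called: Bax had 139, 128 and 141 CPM under the combination and 136, 97.6 and 167 CPM under sham, and Pmaip1 had 8.53, 7.23 and 8.75 CPM under the combination and 2.08, 3.39 and 2.02 CPM under sham. Trp53 itself, which encodes p53, had 143, 163 and 135 CPM under the combination and 249, 226 and 201 CPM under sham and was not called (log2 fold change -0.62 ± 0.30, edgeR adjusted p = 0.16). The 2 members of the list called lower were Cdkn2a, the gene of the p16 and ARF proteins (log2 fold change -2.94 ± 0.86, edgeR adjusted p = 0.033), and the mitochondrial reductase gene Fdxr (log2 fold change -0.59 ± 0.15, edgeR adjusted p = 0.02). Cdkn2a is also in the senescence list, and control of the list's members by p53 was not tested. With tumours left out, the 18 calls became 9 without IO-726, 9 without IO-731 and 8 without S-761, and 15 to 18 without the others. Of the 13 called genes named here, the number that lost the call when a tumour was left out was 6 without IO-726, 3 without IO-728, 6 without IO-731, 2 without S-758, 1 without S-759 and 7 without S-761, and 2 without S-761 and EIO-744 together.

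**Figure D2:**
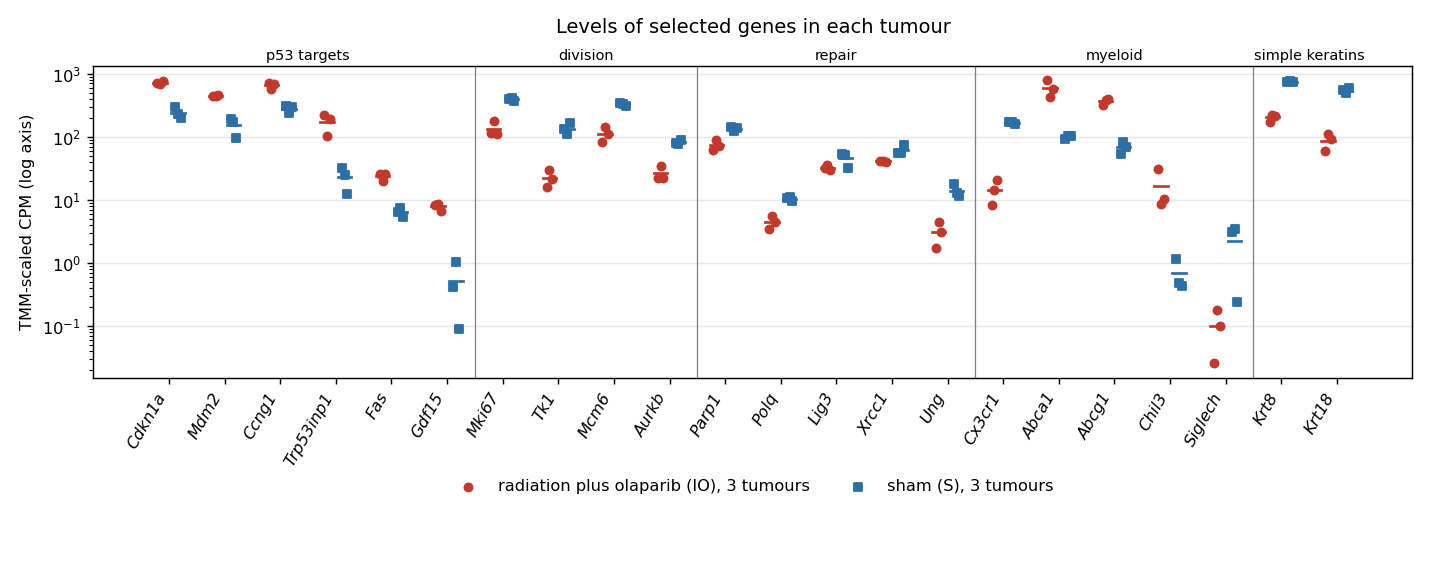
Levels in TMM-scaled CPM on a log axis of selected genes, with the 3 combination tumours as red circles left of the 3 sham tumours as blue squares and a line at each mean. Cdkn1a lies between 682 and 765 CPM in the combination tumours, above all 3 sham tumours, and Mki67 between 110 and 175 CPM, below all 3.

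Genes of DNA replication were lower under the combination. Of 43 tested, 25 were called lower and 0 higher, the median log2 fold change was -1.25, and all 43 showed no overlap between groups in the lower direction, against 20% of all genes. Mcm6, a subunit of the replicative helicase, had 82.3, 141 and 110.5 CPM in the combination tumours, against 343, 328 and 306 CPM in the sham tumours (log2 fold change -1.55 ± 0.47, edgeR adjusted p = 0.037). Pcna, the sliding clamp of DNA polymerases, had 84.4, 121 and 102 CPM under the combination and 222, 193 and 232 CPM under sham (log2 fold change -1.07 ± 0.31, edgeR adjusted p = 0.031). Rpa2, part of the single-strand binding complex, had 17.1, 22.8 and 21.6 CPM under the combination and 54.2, 45.4 and 55.3 CPM under sham (log2 fold change -1.33 ± 0.28, edgeR adjusted p = 0.0096), with every combination tumour under every sham tumour. Licensing factors moved the same way, with log2 fold changes of -1.44 ± 0.40 for Cdt1 and -1.42 ± 0.34 for its inhibitor Gmnn. The transcription factor genes E2f1 (-0.83 ± 0.26) and E2f2 (-1.70 ± 0.41) and the replication ligase gene Lig1 (-1.63 ± 0.50) were called lower as well. In nucleotide synthesis 10 of 26 genes were called lower and 0 higher, with a median of -0.82. Tk1, thymidine kinase, had 15.8, 29.7 and 21.1 CPM under the combination and 131, 109 and 163 CPM under sham (log2 fold change -2.60 ± 0.65, edgeR adjusted p = 0.018), the largest decrease among the called members of that list. The thymidylate synthase gene Tyms had 19.5, 29.6 and 20.8 CPM under the combination and 85.5, 63.1 and 102 CPM under sham (log2 fold change -1.85 ± 0.45, edgeR adjusted p = 0.017). Without IO-726, without IO-731 and without S-761 the called members of the replication, nucleotide and mitosis lists numbered 0. The replication list had 18 without IO-728, 8 without S-758 and 16 without S-759, and the nucleotide list 10, 6 and 9. Leaving out a tumour ended the call of the 10 called genes named here in these numbers: 10 without IO-726, 3 without IO-728, 10 without IO-731, 5 without S-758, 3 without S-759 and 10 without S-761, and 0 without S-761 and EIO-744 together.

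Mitosis genes had a median log2 fold change of -1.27 over 38 tested genes. All 38 were lower in every combination tumour than in any sham tumour, against 20% of all genes. Only 3 were called lower, a share near the 7.57% of all genes. The called genes were Aurkb, a kinase of chromosome segregation (log2 fold change -1.64 ± 0.53, edgeR adjusted p = 0.049), the spindle checkpoint gene Mad2l1 (log2 fold change -1.44 ± 0.43, edgeR adjusted p = 0.037) and the separase gene Espl1 (log2 fold change -1.40 ± 0.44, edgeR adjusted p = 0.045). Mki67, the proliferation marker, had 113, 175 and 109.8 CPM in the combination tumours, against 401, 419 and 365 CPM in the sham tumours and was not called (log2 fold change -1.57 ± 0.59, edgeR adjusted p = 0.08). Cdc20, an activator of the anaphase-promoting complex, had 39.0, 51.5 and 37.7 CPM under the combination and 132, 119 and 122 CPM under sham (log2 fold change -1.54 ± 0.66, edgeR adjusted p = 0.12), again without overlap and without a call. The count changed with the libraries fitted, and the cause was not tested. It was 0 without S-761 alone, 32 of the 38 without S-761 and EIO-744 together, 8 without I-739, and 37 with the combination and sham tumours fitted alone, where 14853 genes were tested. The 3 called genes named here lost their call in these numbers when tumours were left out: 3 without IO-726, 3 without IO-728, 3 without IO-731, 3 without S-758, 2 without S-759 and 3 without S-761, and 0 without S-761 and EIO-744 together.

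Promoters of these genes are shown for a pair of short elements known from cell cycle promoters, 1 for each list. The CHR element (TTTGAA, either strand) stood in 23 of the 31 mitosis promoters found in RefSeq (74.2%), against 23.5% of replication promoters and 15.5% of the 12925 promoters of all tested genes. The E2F element (TTTNNCGC, either strand) stood in 15 of 34 replication promoters (44.1%), against 12.9% of mitosis promoters and 8.82% of all. Each window covers 250 bases before to 50 bases after a start. The following stretches lie before the start, are written 5′ to 3′ on the strand of the gene (RefSeq, GRCm38.p6), and carry the matched letters in capitals. In Mcm6 the capitals hold 2 overlapping matches, 1 on each strand. The sequences are from chr4:118437344-118437401 on the minus strand, chr1:128359768-128359855 on the minus strand and chr5:151651209-151651258 on the minus strand, Rfc3 being a clamp loader gene.
Cdc20: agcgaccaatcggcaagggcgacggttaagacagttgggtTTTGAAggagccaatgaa
Mcm6: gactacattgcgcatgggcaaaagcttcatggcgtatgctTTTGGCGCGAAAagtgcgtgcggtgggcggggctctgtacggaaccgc
Rfc3: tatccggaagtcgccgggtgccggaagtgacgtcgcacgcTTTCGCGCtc
A match is a description of letters in the window and not a bound site.

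Most repair genes called under the combination were lower. In alternative end joining 9 of 23 genes were called lower and 0 higher, with a median log2 fold change of -0.70. Parp1, the main target of olaparib (chromosome 1, 180568891 to 180600999), had 61.4, 87.9 and 71.1 CPM in the combination tumours, against 143, 122.9 and 139 CPM in the sham tumours (log2 fold change -0.88 ± 0.25, edgeR adjusted p = 0.029). The groups did not overlap. Xrcc1, the scaffold of single-strand break repair, had 41.6, 41.5 and 40.3 CPM under the combination and 55.6, 54.7 and 75.0 CPM under sham (log2 fold change -0.59 ± 0.16, edgeR adjusted p = 0.027). Its combination tumours lay within a narrow range below the sham tumours. Mre11a, the nuclease that trims broken ends (-0.77 ± 0.22), and Rhno1, a partner of the Rad9 clamp that is known to act with polymerase theta (-0.72 ± 0.15), were called lower. Polq, polymerase theta, had 3.48, 5.48 and 4.51 CPM under the combination and 10.7, 11.2 and 9.51 CPM under sham and was not called (log2 fold change -1.22 ± 0.56, edgeR adjusted p = 0.14). Lig3 had 31.6, 35.3 and 30.2 CPM under the combination and 54.1, 51.6 and 32.1 CPM under sham and was not called (log2 fold change -0.51 ± 0.19, edgeR adjusted p = 0.077); S-761 had the lowest of the 3 sham values. Base excision repair had 8 of 18 genes called lower and 0 higher. Ung, which removes uracil from DNA, had 1.75, 4.45 and 3.14 CPM under the combination and 18.0, 12.7 and 11.5 CPM under sham (log2 fold change -2.17 ± 0.54, edgeR adjusted p = 0.018), and the glycosylase gene Neil3 was called lower as well (-2.45 ± 0.68). Homologous recombination had 2 of 26 genes called lower, Xrcc3 (-1.53 ± 0.34) and Mus81 (-0.61 ± 0.17), a share close to the 7.57% of all genes, with a median of -0.89. With the combination and sham tumours fitted alone 16 of its 26 genes were called lower, as were 13 of 23 in alternative end joining, and by limma with sample weights 19 and 17. No difference between the pathways was tested. Neither Brca1 (-0.94 ± 0.55) nor Brca2 (-1.23 ± 0.45) was called, although for each every combination tumour was below every sham tumour. Classical end joining had 3 of 20 called lower, among them the Ku70 gene Xrcc6 (-1.03 ± 0.34), and 1 higher, the Artemis nuclease gene Dclre1c, with 59.4, 36.2 and 50.3 CPM under the combination and 19.8, 21.3 and 20.2 CPM under sham (log2 fold change 1.25 ± 0.29, edgeR adjusted p = 0.015). Among these 10 called genes the losses were 10 without IO-726, 3 without IO-728, 10 without IO-731, 7 without S-758, 2 without S-759 and 10 without S-761, and 0 without S-761 and EIO-744 together.

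Within the PARP family of 20 tested genes, 2 were called lower and 2 higher. Over all genes tested the shares were 7.57% and 5.27%, to be set beside this list and the checkpoint and Fanconi lists below. Beside Parp1 the lower one was Hpf1, the partner that directs PARP1 to serine residues (log2 fold change -0.84 ± 0.27, edgeR adjusted p = 0.047). The higher ones were Parp14 (log2 fold change 1.01 ± 0.31, edgeR adjusted p = 0.04), an interferon-induced member, and Parp8 (log2 fold change 0.66 ± 0.19, edgeR adjusted p = 0.034). Parp2, the other nuclear target of olaparib, had 23.7, 20.0 and 19.1 CPM under the combination and 26.2, 24.4 and 34.3 CPM under sham and was not called (log2 fold change -0.44 ± 0.16, edgeR adjusted p = 0.075). Parg, which removes poly(ADP-ribose), had 44.8, 37.2 and 42.5 CPM under the combination and 35.6, 36.7 and 28.9 CPM under sham and was not called (log2 fold change 0.30 ± 0.10, edgeR adjusted p = 0.066). Among checkpoint genes 4 of 18 were called lower, including the fork protection genes Timeless (-1.18 ± 0.30) and Tipin (-1.21 ± 0.29) and the gene of the mitosis-inhibiting kinase Pkmyt1 (-1.90 ± 0.49). Fanconi anaemia genes had 3 of 16 called lower, Usp1 (-0.83 ± 0.23), Faap100 (-0.60 ± 0.17) and Fance (-0.46 ± 0.15). Many of these repair genes are also expressed with the cell cycle, and mitosis genes summed to 1825, 2368 and 1858 CPM in the combination tumours, against 4873, 4873 and 4653 CPM in the sham tumours. The part of that difference in the repair values was not tested. Without IO-726, IO-731 or S-761 the alternative end joining and PARP lists had 0 called members. Alternative end joining had 7 without IO-728, 2 without S-758 and 6 without S-759. Of the 10 called genes named here, the number that lost the call when a tumour was left out was 10 without IO-726, 5 without IO-728, 10 without IO-731, 8 without S-758, 3 without S-759 and 10 without S-761, and 3 without S-761 and EIO-744 together.

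Cholesterol synthesis genes were lower under the combination. Of 25 tested genes 21 were called lower and 0 higher, with a median log2 fold change of -1.88. Cyp51, which demethylates lanosterol (chromosome 5, 4080674 to 4104697), had 19.1, 16.0 and 16.4 CPM in the combination tumours, against 155, 151 and 175 CPM in the sham tumours (log2 fold change -3.22 ± 0.51, edgeR adjusted p = 0.0033). Fdps, which makes farnesyl diphosphate, had 21.2, 23.0 and 18.5 CPM under the combination and 188, 180.5 and 282 CPM under sham (log2 fold change -3.37 ± 0.44, edgeR adjusted p = 0.0013). Neither gene had any overlap between groups. Sqle, squalene epoxidase, had 23.6, 34.8 and 24.9 CPM under the combination and 218, 225 and 241 CPM under sham (log2 fold change -3.04 ± 0.61, edgeR adjusted p = 0.0086). The mevalonate kinase gene Mvk had 13.1, 12.2 and 11.3 CPM under the combination and 32.9, 30.8 and 45.5 CPM under sham (log2 fold change -1.57 ± 0.19, edgeR adjusted p = 0.00072), and S-761 was its highest tumour. Srebf2, the transcription factor that drives these genes, had 103, 102 and 89.9 CPM under the combination and 396, 442 and 302 CPM under sham (log2 fold change -1.95 ± 0.35, edgeR adjusted p = 0.0057). Insig1, a sterol sensor and itself a target of that factor, was called lower too (-1.90 ± 0.22). Leaving out a tumour left 16 members called without IO-726, 20 without IO-728, 15 without IO-731, 19 without S-758, 21 without S-759 and 17 without S-761. Leaving out a tumour ended the call of the 6 called genes named here in these numbers: 1 without IO-726, 0 without IO-728, 1 without IO-731, 0 without S-758, 0 without S-759 and 0 without S-761, and 0 without S-761 and EIO-744 together.

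**Figure D3:**
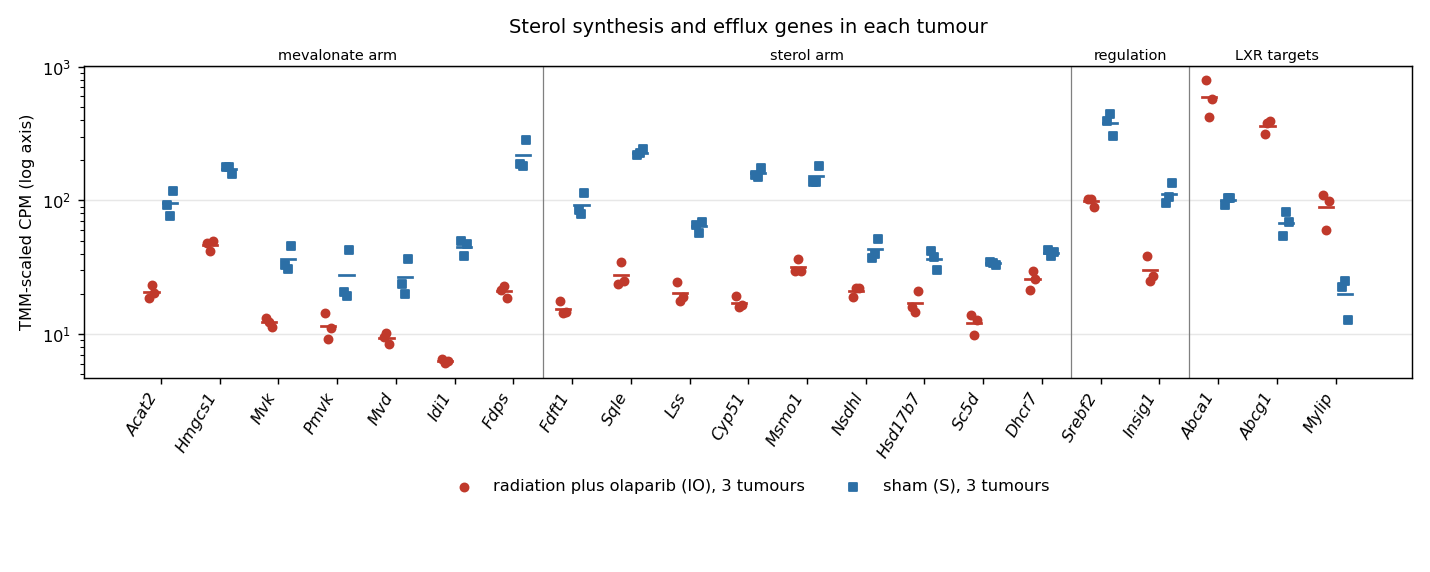
Levels in TMM-scaled CPM on a log axis of sterol genes in pathway order, combination tumours as red circles left of sham tumours as blue squares, with a line at each mean. Fdps lies between 18.5 and 23.0 CPM in the combination tumours and between 180.5 and 282 CPM in the sham tumours, while Abca1 lies above all sham tumours in the combination.

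The promoters of these genes are shown for the elements known in sterol regulation, the sterol regulatory element and the CCAAT box of the NF-Y complex. CCAAT, on either strand, stood in 17 of the 18 promoters of the list found in RefSeq (94.4%), against 42.4% of all promoters of tested genes. In other lists it ranged from 0 of 5 promoters (simple epithelial keratins) to 7 of 8 (class II presentation), with 24 of 31 for mitosis. It is therefore not particular to this list. The letters TCACNCCAC stood in 1 of the 18, Hmgcs1, against 1.4% of all, 3 of 37 in the p53 target list and 0 of 31 in the mitosis list. Stretches before the start are given on the strand of the gene with the element in capitals, from chr13:119690174-119690262 on the plus strand for the sterol element and from chr5:28071162-28071240 on the plus strand and chr8:64733694-64733778 on the minus strand for CCAAT, which reads ATTGG where it lies on the opposite strand.
Hmgcs1: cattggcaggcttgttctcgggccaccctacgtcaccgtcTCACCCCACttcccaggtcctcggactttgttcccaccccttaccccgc
Insig1: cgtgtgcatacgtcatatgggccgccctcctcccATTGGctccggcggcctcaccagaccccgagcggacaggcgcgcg
Msmo1: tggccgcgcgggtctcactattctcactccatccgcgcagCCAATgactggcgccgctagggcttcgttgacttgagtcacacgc
Hmgcs1 encodes an early synthase of the pathway and Msmo1 a sterol demethylating enzyme, and both are among the called genes.

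Genes of sterol efflux and the lysosome went the other way. Of 25 tested, 7 were called higher and 0 lower, with a median log2 fold change of 0.87. Abca1, which exports cholesterol to lipoproteins (chromosome 4, 53030789 to 53159988), had 799, 422 and 569.8 CPM in the combination tumours, against 92.8, 104 and 104 CPM in the sham tumours (log2 fold change 2.57 ± 0.49, edgeR adjusted p = 0.0077). Abcg1, another cholesterol exporter, had 315, 378 and 396 CPM under the combination and 54.4, 81.5 and 68.4 CPM under sham (log2 fold change 2.42 ± 0.43, edgeR adjusted p = 0.0054). Both are known targets of the liver X receptors, as is Mylip, a ubiquitin ligase, with 109.7, 60.4 and 98.3 CPM under the combination and 22.7, 24.8 and 12.8 CPM under sham (log2 fold change 2.15 ± 0.52, edgeR adjusted p = 0.016). The acid lipase gene Lipa (0.78 ± 0.20), the protease gene Ctsd (1.24 ± 0.31) and the membrane gene Lamp2 (0.65 ± 0.21) were called higher with smaller changes. Apoe, an apolipoprotein that macrophages secrete, had 5585, 1656 and 3635 CPM under the combination and 743, 643 and 1154 CPM under sham and was not called (log2 fold change 2.10 ± 0.74, edgeR adjusted p = 0.067). Fatty acid synthesis had 7 of 17 genes called lower and 0 higher. Among them were the desaturase genes Fads2, with 11.2, 6.33 and 5.16 CPM under the combination and 82.3, 80.8 and 65.6 CPM under sham (log2 fold change -3.33 ± 0.71, edgeR adjusted p = 0.01), and Scd2 (-1.11 ± 0.24), the elongase gene Elovl6 (-2.13 ± 0.45) and Acly, which supplies acetyl-CoA (-0.61 ± 0.16). Macrophage markers, which include cells rich in these exporters, summed to 25680.0, 17470.0 and 19430.0 CPM in the combination tumours, against 8564, 8853 and 17640.0 CPM in the sham tumours. S-761 lay above IO-728 for that sum, and the part of these cells in the efflux values was not tested. The 7 efflux calls became 3 without IO-726, 5 without IO-728, 2 without IO-731, 3 without S-758, 5 without S-759 and 2 without S-761. The 7 fatty acid calls became 4, 10, 2, 5, 6 and 5 in the same order. The 10 called genes named here lost their call in these numbers when tumours were left out: 5 without IO-726, 1 without IO-728, 8 without IO-731, 4 without S-758, 1 without S-759 and 5 without S-761, and 0 without S-761 and EIO-744 together.

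Glycolysis and hypoxia genes were lower under the combination, with 19 of 31 called lower, 0 higher and a median log2 fold change of -1.36. Car9, a carbonic anhydrase and target of hypoxia-inducible factor 1, had 2.94, 15.5 and 5.73 CPM in the combination tumours, against 43.3, 81.7 and 77.8 CPM in the sham tumours (log2 fold change -3.07 ± 0.91, edgeR adjusted p = 0.035). Slc2a1, the glucose transporter GLUT1, had 55.4, 103 and 60.1 CPM under the combination and 211, 264 and 341 CPM under sham (log2 fold change -1.90 ± 0.47, edgeR adjusted p = 0.017). Ldha, lactate dehydrogenase A, had 572, 812 and 518 CPM under the combination and 1564, 1608 and 2339.9 CPM under sham (log2 fold change -1.54 ± 0.27, edgeR adjusted p = 0.0046). IO-728 was the highest combination tumour for all 3 genes and still below every sham tumour. Vegfa, the angiogenic growth factor, had 28.3, 48.2 and 27.5 CPM under the combination and 95.1, 117 and 93.2 CPM under sham (log2 fold change -1.55 ± 0.33, edgeR adjusted p = 0.011). Endothelial markers summed to 672, 590.1 and 508 CPM in the combination tumours, against 341, 401 and 308 CPM in the sham tumours. By edgeR 0 of the 21 were called, with 2 at an unadjusted p under 0.05, and 1 by DESeq2. Gapdh (-1.59 ± 0.32) and Aldoa (-1.42 ± 0.30) were called lower too, but they have near-identical copies, so their counts are uncertain. Ribosomal protein genes had 23 of 28 called lower, with a median of -0.86, and oxidative phosphorylation genes 12 of 22 called lower, with a median of -0.51. Rpl3 had 557, 559 and 583 CPM under the combination and 1003, 947 and 1675 CPM under sham (log2 fold change -1.09 ± 0.21, edgeR adjusted p = 0.0077), and S-761 was far above the other sham tumours for it; ribosomal protein genes also have many processed copies. The hypoxia calls became 2 without IO-726, 18 without IO-728, 3 without IO-731, 14 without S-758, 16 without S-759 and 5 without S-761. Ribosomal calls became 2, 19, 1, 22, 28 and 2 in the same order, and oxidative phosphorylation calls 0, 11, 0, 7, 18 and 1. Among these 7 called genes the losses were 5 without IO-726, 0 without IO-728, 5 without IO-731, 1 without S-758, 1 without S-759 and 4 without S-761, and 0 without S-761 and EIO-744 together.

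Few interferon response genes were called by edgeR on all 24 tumours. Of the 33 tested in the type I interferon list 3 were called higher and 0 lower, against 5.27% and 7.57% of all genes. All 33 log2 fold changes were above 0, with a median of 0.79, and 19 did not overlap between groups in the higher direction, against 21.3% of all genes. The called genes were Oas2, a double-stranded RNA sensor, with 82.0, 75.2 and 84.5 CPM in the combination tumours, against 31.8, 52.8 and 27.2 CPM in the sham tumours (log2 fold change 1.11 ± 0.32, edgeR adjusted p = 0.032), Trim30a (log2 fold change 1.03 ± 0.30, edgeR adjusted p = 0.032) and Parp14. S-759 was the highest sham tumour and S-761 the lowest for Oas2 and Trim30a. Irf7, which amplifies interferon transcription, had 341, 480.2 and 423 CPM under the combination and 181, 249 and 281 CPM under sham and was not called (log2 fold change 0.81 ± 0.44, edgeR adjusted p = 0.21). Isg15 had 57.7, 103 and 82.4 CPM under the combination and 70.8, 83.9 and 57.1 CPM under sham, and its groups overlapped. Cxcl10, a chemokine that attracts T cells, also overlapped, with 38.2, 95.9 and 94.5 CPM under the combination and 75.7, 98.9 and 34.2 CPM under sham. In the list of DNA and RNA sensing 3 of 14 genes were called higher: Ifi203 (1.03 ± 0.20), Ifi204 (0.91 ± 0.20) and the kinase gene Tbk1 (0.42 ± 0.13). Cgas, the sensor of cytosolic DNA, had 11.5, 18.3 and 16.4 CPM under the combination and 26.4, 26.4 and 16.4 CPM under sham and was not called (log2 fold change -0.58 ± 0.33, edgeR adjusted p = 0.23). Genes of class I antigen presentation had 0 of 18 called by edgeR and by DESeq2, with 2 at an unadjusted p under 0.05. Class II genes had 0 of 11 called by edgeR and 1 by DESeq2, and 2 had an unadjusted p under 0.05. Cd274, which encodes PD-L1, had 59.9, 141 and 116 CPM under the combination and 23.5, 58.9 and 30.3 CPM under sham and was not called (log2 fold change 1.49 ± 0.54, edgeR adjusted p = 0.07), although the lowest combination tumour was just above the highest sham tumour. Cd80, a costimulatory ligand, was the only gene called by edgeR among 29 of interferon gamma response and checkpoints (log2 fold change 1.28 ± 0.30, edgeR adjusted p = 0.015). For that list DESeq2 called 6 higher and limma with sample weights 13. The Oas genes and the Ifi203 and Ifi204 genes belong to families of close copies, so reads may be split among them. The 3 interferon calls became 6 without S-759 and 0 without each of the other 5 tumours. Of the same 33 genes DESeq2 called 7 higher, edgeR on the 6 tumours alone 8 and limma with sample weights 21, each with 0 lower. Of the 7 called genes named here, the number that lost the call when a tumour was left out was 6 without IO-726, 4 without IO-728, 7 without IO-731, 3 without S-758, 0 without S-759 and 7 without S-761, and 4 without S-761 and EIO-744 together.

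The interferon-stimulated response element, the letters GAAA, any 2 bases and GAAA on either strand, stood in 14 of the 25 promoters of the list found in RefSeq (56%), against 3.91% of all promoters of tested genes. The stretch before a start of Trim30a, from chr7:104465194-104465269 on the minus strand, is shown with the element in capitals, on the opposite strand to the gene.
Trim30a: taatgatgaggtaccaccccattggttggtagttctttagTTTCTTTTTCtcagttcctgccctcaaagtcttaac
Trim30a encodes a regulator of inflammatory signalling in mice.

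Few markers of immune cells were called by edgeR on all 24 tumours, and macrophage and neutrophil calls varied with the fit. The macrophage list had 3 of 25 genes called higher and 1 lower, against 5.27% and 7.57% of all genes. The combination and sham tumours fitted alone gave 10 higher, DESeq2 7 and limma with sample weights 16, each with 1 lower. In the fit without IO-726 and in that without S-761, 0 were called. Between groups 11 did not overlap in the higher direction, against 21.3% of all genes. Cx3cr1, the fractalkine receptor of monocytes and resident macrophages (chromosome 9, 120048683 to 120068296), had 8.25, 14.3 and 20.9 CPM in the combination tumours, against 170.0, 174 and 157 CPM in the sham tumours (log2 fold change -3.53 ± 0.92, edgeR adjusted p = 0.021). It was the only member of the list called lower. Mertk, a receptor for clearing dead cells, had 244, 91.9 and 148 CPM under the combination and 50.0, 42.8 and 61.4 CPM under sham (log2 fold change 1.65 ± 0.52, edgeR adjusted p = 0.044), and Chil3, a chitinase-like protein of activated macrophages, 31.3, 8.50 and 10.3 CPM under the combination and 1.17, 0.491 and 0.428 CPM under sham (log2 fold change 4.57 ± 0.99, edgeR adjusted p = 0.011). Among neutrophil markers 2 of 17 were called higher, Lcn2 (log2 fold change 4.44 ± 1.38, edgeR adjusted p = 0.042) and Mmp8 (log2 fold change 3.92 ± 0.97, edgeR adjusted p = 0.018). The median of that list was 1.46, and 13 of the 17 did not overlap between groups in the higher direction. The combination and sham tumours fitted alone gave 7 higher, DESeq2 4 and limma with sample weights 11, the last with 1 lower. In each of the fits without IO-726, without IO-731 and without S-761, 0 were called. The alarmin gene S100a8 was not called (log2 fold change 2.38 ± 1.28, edgeR adjusted p = 0.2), nor was the acute phase gene Saa3 (log2 fold change 4.51 ± 1.62, edgeR adjusted p = 0.069). Plasmacytoid dendritic cell markers had 3 of 10 called lower, Siglech, Ccr9 (-3.46 ± 0.91) and Pacsin1 (-2.67 ± 0.76), all at low levels, while the median log2 fold change of the list was 0.33. The list summed to 732.2, 919 and 953 CPM in the combination tumours, against 502, 656 and 625 CPM in the sham tumours, higher in every combination tumour than in any sham tumour. Only 1 of its 10 genes was without overlap in the higher direction and 3 were in the lower, so the sum does not stand for the list. Siglech had 0.0258, 0.18 and 0.0997 CPM under the combination and 3.07, 3.47 and 0.245 CPM under sham (log2 fold change -4.43 ± 1.06, edgeR adjusted p = 0.016), and S-761 was close to the combination tumours. T cell markers had 1 of 21 called lower, Cd6 (log2 fold change -2.37 ± 0.72, edgeR adjusted p = 0.038), a share under the 7.57% of all genes, and the median log2 fold change was -1.11. At an unadjusted p under 0.05, 7 were lower and 1 higher. DESeq2 called 3 lower and 0 higher. The combination and sham tumours fitted alone gave 2 higher and 2 lower, as did limma with sample weights. Cd3e, part of the T cell receptor complex, had 6.99, 11.6 and 20.6 CPM under the combination and 15.8, 41.3 and 58.7 CPM under sham and was not called (log2 fold change -1.56 ± 0.69, edgeR adjusted p = 0.13). Cd8a had 15.3, 17.1 and 46.1 CPM under the combination and 24.3, 54.2 and 66.6 CPM under sham and overlapped (log2 fold change -0.88 ± 0.87, edgeR adjusted p = 0.5). Natural killer markers summed to 1034, 1550.0 and 536 CPM in the combination tumours, against 334, 386 and 368 CPM in the sham tumours. By edgeR 0 of the 19 were called, with 4 at an unadjusted p under 0.05, and 3 by DESeq2. Saa3 has close copies, so its level is uncertain. Leaving out a tumour ended the call of the 9 called genes named here in these numbers: 9 without IO-726, 4 without IO-728, 8 without IO-731, 4 without S-758, 4 without S-759 and 7 without S-761, and 2 without S-761 and EIO-744 together.

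Tumour and stromal markers differed in size of change and in spread. Keratins of simple epithelia, which many carcinoma cells express, summed to 237, 352 and 320.5 CPM in the combination tumours, against 1285, 1255 and 1324 CPM in the sham tumours. Krt8 had 173, 223 and 217 CPM under the combination and 737, 767 and 729.7 CPM under sham (log2 fold change -1.87 ± 1.02, edgeR adjusted p = 0.21), and Krt18 had 60.3, 110.2 and 90.9 CPM under the combination and 545, 485 and 589 CPM under sham (log2 fold change -2.63 ± 1.07, edgeR adjusted p = 0.1). Neither was called, although no combination tumour overlapped a sham tumour for either. By edgeR 0 of the 7 tested keratins of this list were called, with 3 at an unadjusted p under 0.05, and by DESeq2 1 was called higher and 1 lower. The median log2 fold change of the list was 1.49, opposite in sign to its sum, since Krt8 and Krt18 make up most of the sum. Without S-761 and EIO-744, 2 were called lower. Basal squamous genes summed to 961, 1889 and 1794 CPM in the combination tumours, against 1422, 1394 and 1251 CPM in the sham tumours, and of 19 genes 0 were called higher and 1 lower, while the list's median log2 fold change was 0.76. Skeletal muscle markers summed to 447, 1707 and 436 CPM in the combination tumours, against 259.5, 217 and 259.8 CPM in the sham tumours, with a median log2 fold change of 3.48. Acta1, skeletal actin, had 58.1, 266 and 55.9 CPM under the combination and 20.8, 18.2 and 5.87 CPM under sham (log2 fold change 3.08 ± 1.81, edgeR adjusted p = 0.24). Adipocyte markers summed to 172, 1167 and 415 CPM in the combination tumours, against 92.6, 100.2 and 94.6 CPM in the sham tumours, and IO-728 was the highest tumour for both lists. Fibroblast and matrix genes summed to 8780.0, 9007 and 11950.0 CPM in the combination tumours, against 10010.0, 9419 and 5476 CPM in the sham tumours, with overlap. The collagen gene Col3a1 differed by less than its SE (log2 fold change 0.08 ± 0.75, edgeR adjusted p = 0.95). The part of these cell types in the gene lists above was not tested. By edgeR the muscle, adipocyte and fibroblast lists had 0 called members of 26, 13 and 25, with 5, 9 and 4 at an unadjusted p under 0.05. DESeq2 called 5, 8 and 2, and edgeR on the 6 tumours alone called 17, 6 and 8.

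**Figure D4:**
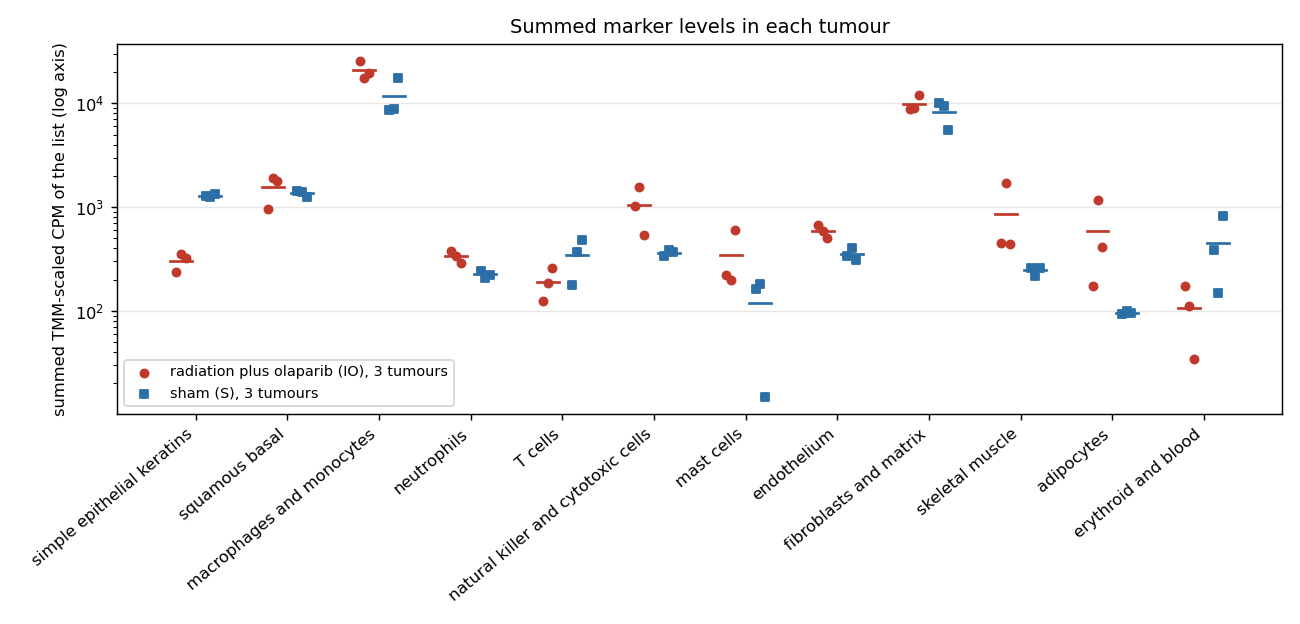
Summed TMM-scaled CPM on a log axis of cell type marker lists in each tumour, combination tumours as red circles left of sham tumours as blue squares, with a line at each mean. Simple epithelial keratins lie between 237 and 352 CPM in the combination tumours, below all 3 sham tumours, and mast cell markers lie at 14.8 CPM in S-761.

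The genes with the largest changes overlapped in part with the lists above. Pdk4, a kinase that turns cells from glucose to fat oxidation, had the largest rise among genes named by size, with 8.46, 5.64 and 16.2 CPM in the combination tumours, against 0.13, 0.103 and 0.0306 CPM in the sham tumours (log2 fold change 6.75 ± 2.04, edgeR adjusted p = 0.038). Cd5l, a secreted macrophage protein and target of liver X receptors, had 2.32, 11.9 and 8.03 CPM under the combination and 0.104, 0.181 and 0.245 CPM under sham (log2 fold change 5.38 ± 1.04, edgeR adjusted p = 0.0084). It was called with each of the 6 tumours left out. Serpina3n, a protease inhibitor of the acute phase, had 54.6, 104 and 111 CPM under the combination and 5.16, 4.91 and 4.74 CPM under sham (log2 fold change 4.19 ± 1.11, edgeR adjusted p = 0.023), the highest level in this set. Others that rose were Mrap, Slc16a14, Fam107a, Rnase2a, Vldlr, Hif3a, Cyp4b1, Cyp26b1, Sned1 and Cyp7b1, with log2 fold changes between 4.14 and 5.44. Cyp26b1 degrades retinoic acid (log2 fold change 4.42 ± 1.00, edgeR adjusted p = 0.014), and Cyp7b1 hydroxylates oxysterols (log2 fold change 4.14 ± 1.27, edgeR adjusted p = 0.04). The sham levels of Pdk4 rest on few counts, so the size of its rise is imprecise. Adipocyte and skeletal muscle marker sums were also higher in every combination tumour than in any sham tumour. The part of those cells in the genes of this paragraph was not tested. Among the fallen genes outside the sterol and hypoxia lists were the calcium channel gene Cacna2d2 (log2 fold change -3.70 ± 1.09, edgeR adjusted p = 0.033), the adenylate kinase gene Ak5 (log2 fold change -3.11 ± 0.85, edgeR adjusted p = 0.024) and Mgarp, a mitochondrial protein (log2 fold change -3.19 ± 0.77, edgeR adjusted p = 0.017). Cd7, a lymphocyte antigen, had 1.55, 1.60 and 1.35 CPM under the combination and 4.66, 9.18 and 19.7 CPM under sham (log2 fold change -2.90 ± 0.61, edgeR adjusted p = 0.0099), so its sham tumours differed widely among themselves. The glycolytic gene Aldoc fell as well (log2 fold change -2.92 ± 0.53, edgeR adjusted p = 0.0057). The 18 called genes named here lost their call in these numbers when tumours were left out: 15 without IO-726, 5 without IO-728, 17 without IO-731, 11 without S-758, 9 without S-759 and 16 without S-761, and 1 without S-761 and EIO-744 together.

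Values of the single agents show where the combination lay. All contrasts with sham share the 3 sham tumours, so they are set side by side without a test of their likeness. Radiation alone had 764 genes called higher (4.61% of those tested) and 895 lower (5.4%), and olaparib alone had 0 called by edgeR, with 1602 genes at an unadjusted p under 0.05. Cdkn1a had 713.1, 682 and 765 CPM under the combination, 705, 719 and 332 CPM under radiation, 184, 342 and 241 CPM under olaparib and 299.7, 229 and 197 CPM under sham. I-739 lay below the other irradiated tumours and near the olaparib tumour O-723. Summed over the lists I-739 had 1296 CPM of cholesterol genes, 4241 CPM of mitosis genes and 4429 CPM of macrophage markers, against 561 and 651, 972 and 1827, and 27820.0 and 27340.0 CPM in the other irradiated tumours. All radiation values that follow include it unless it is said to be left out. Fdps had 21.2, 23.0 and 18.5 CPM under the combination, 15.3, 21.9 and 60.5 CPM under radiation, 153, 128 and 147 CPM under olaparib and 188, 180.5 and 282 CPM under sham. Median log2 fold changes of the cholesterol list against sham were -1.88 for the combination, -1.44 for radiation and -0.19 for olaparib. For p53 targets the medians were 0.70, 0.61 and 0.03, and for alternative end joining -0.70, -0.34 and -0.15. The type I interferon list had medians of 0.79 for the combination, 0.12 for radiation and 0.21 for olaparib. Without I-739 the radiation medians were -1.90 for the cholesterol list, 0.71 for p53 targets, -0.57 for alternative end joining and 0.03 for the interferon list, and radiation had 1795 genes called higher and 1938 lower. The combination against radiation alone had 0 genes called by edgeR, 3 by DESeq2 and 0 by limma with sample weights, while 625 had an unadjusted p under 0.05. Without I-739 edgeR again called 0, with 827 at an unadjusted p under 0.05. The difference in Fdps between them was -0.64 ± 0.41 (edgeR adjusted p = 1), and in Parp1 -0.20 ± 0.25 (edgeR adjusted p = 1), so neither was shown to differ.

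The combination against olaparib alone had 136 genes called higher (0.821%) and 105 lower (0.634%). Genes with small p in each direction are named. Ccng1, a p53 target that recruits a phosphatase to Mdm2, had 576 and 676 CPM in IO-728 and IO-731, with IO-726 above both, and 242, 301 and 310.0 CPM under olaparib (log2 fold change 1.20 ± 0.19, edgeR adjusted p = 0.0076). Ephx1, a microsomal epoxide hydrolase and member of the p53 list, had 365, 226 and 312 CPM under the combination and 59.6, 99.6 and 81.4 CPM under olaparib (log2 fold change 1.91 ± 0.30, edgeR adjusted p = 0.0068). Inka2, an inhibitor of a p21-activated kinase, changed by 1.63 ± 0.26 and Impact, a translational regulator, by 0.95 ± 0.14. Insig1 had 38.2, 24.9 and 27.4 CPM under the combination and 93.2, 122.5 and 104 CPM under olaparib (log2 fold change -1.82 ± 0.22, edgeR adjusted p = 0.0017). Hmgcs1, Msmo1 and Sc5d, a desaturase of the sterol pathway, fell by 2.14 ± 0.30, 2.16 ± 0.33 and 1.64 ± 0.22 on the log2 scale. Of the cholesterol list 17 of 25 were called lower in this contrast, and of the p53 list 10 of 47 were called higher. Calls higher and lower numbered 5 and 5 without IO-726, 28 and 30 without IO-728, 0 and 1 without IO-731, 2 and 15 without O-722, 10 and 17 without O-723, 9 and 34 without O-724, 871 and 1279 without S-761 and EIO-744 together, and 693 and 534 without I-739. The departure from additivity of both agents, the combination minus each single agent plus sham, had 0 genes called by edgeR, 1 by DESeq2 and 0 by limma with sample weights, while 920 had an unadjusted p under 0.05.

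**Figure D5:**
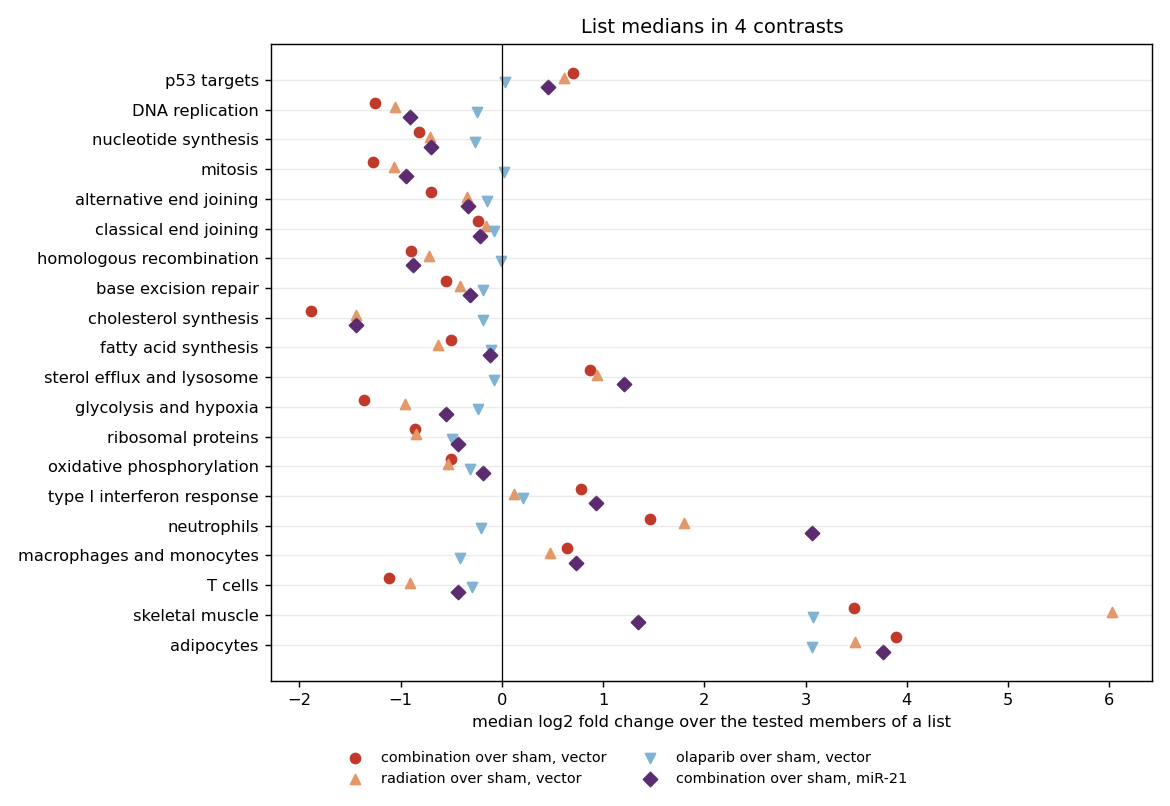
Median log2 fold change of selected gene lists in 4 contrasts: the combination, radiation alone and olaparib alone against sham in vector tumours, and the combination against sham in miR-21-5p tumours (3 tumours a group). The cholesterol list lies at -1.88 for the combination and -0.19 for olaparib alone, the radiation values include I-739 and those of the miR-21-5p line EIO-744, and the first 3 contrasts share their sham tumours.

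In tumours coded for miR-21-5p overexpression the combination against sham had 1131 genes called higher (6.83% of those tested) and 494 lower (2.98%), or 9.81% in all. The cholesterol list had 17 of 25 called lower there, with a median of -1.44, and the p53 list 20 of 47 called higher, with a median of 0.46. Neutrophil genes had 12 of 17 called higher, with a median of 3.06, against 2 of 17 and a median of 1.46 in vector tumours, and 0 of the 17 were called in the test of the difference. EIO-744 had the highest sum of these genes, with 296, 902 and 343 CPM in EIO-713, EIO-744 and EIO-749, against 208, 206 and 213 CPM in the sham tumours of the line. Without EIO-744, 0 of the 17 were called by edgeR in that line and the median was 1.55, while the cholesterol calls became 9 and the p53 calls 8. Saa3 had 18.5, 4912 and 12.3 CPM under the combination in that line and 6.17, 1.56 and 2.84 CPM under sham, so EIO-744 was far above the others. Its log2 fold change was 8.87 ± 1.95 there (edgeR adjusted p = 0.021) and 4.51 ± 1.62 in vector tumours. The difference of the combination effect between the lines was tested directly, with 0 genes called by edgeR, 185 by DESeq2 and 633 by limma with sample weights, while 1782 had an unadjusted p under 0.05. By edgeR 25 were called without IO-728 and 58 without EIO-744. The difference for Cdkn1a, vector minus miR-21-5p line, was 0.19 ± 0.34, for Trp53inp1 1.32 ± 0.64 and for Fdps -1.14 ± 0.58 (edgeR adjusted p = 0.87, 0.47 and 0.49). Pdcd4, a classical target of miR-21-5p, had 43.0, 26.2 and 43.1 CPM under the combination and 18.2, 18.0 and 16.9 CPM under sham in vector tumours and was not called (log2 fold change 1.08 ± 0.40, edgeR adjusted p = 0.08), and Vmp1, the gene that hosts miR-21, had 439, 237 and 317 CPM under the combination and 239.5, 218 and 341 CPM under sham (log2 fold change 0.31 ± 0.22, edgeR adjusted p = 0.32). Calls higher and lower in the miR-21-5p line numbered 176 and 70 without EIO-744, 2372 and 1299 without EIO-749, 7 and 3 without ES-706, 0 and 0 without ES-709 (3912 at an unadjusted p under 0.05), and 6 and 5 without ES-741.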

How the data were processed

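RNA sequencing libraries were made from 24 whole tumours with TRIzol total RNA and the VAHTS Universal V5 kit, per the labels' protocols. The submitters' processing notes name fastp, HISAT2 and HTSeq on build mm10; versions, annotation and strand setting are not given in the sources used here, so overlapping, antisense and near-identical genes are uncertain. The authors deposited raw read counts per gene for 27368 genes, with 37099055 to 40004502 counts a tumour. Counts were tested with edgeR 4.0.16 in R 4.3.3 (quasi-likelihood F-test, TMM, filterByExpr, 16560 genes) on all 24 libraries in 8 coded groups, with Benjamini-Hochberg adjustment and calls under 0.05. DESeq2 1.42.0, limma 3.58.1 with sample weights, other scaling, no filter, other groupings and left-out tumours were alternatives, of which the fits without S-761 and EIO-744 and without I-739 were chosen after seeing the data. The script was tested on simulated data. Replicates are separate tumours, and nothing more says how independent they are. The p-values set differences between groups against a spread estimated over all 24 tumours in the 8 coded groups.

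The comparison and the 52 gene lists were chosen with earlier results of these data known. List entries were matched by symbol (1033), by identifier (2) or by an older symbol (5), and 12 were not found. Named genes are the 15 called genes with the largest rise and the 15 with the largest fall at a mean of at least 1 CPM over the 6 tumours without overlap (predicted genes, pseudogenes and receptor segments left out), up to 4 members a list by smallest p, up to 5 called genes a direction in the other contrasts, and fixed genes. Acly, Aldoa, Apoe, Bax, Cdc20, Cdt1, Cgas, Cxcl10, E2f1, E2f2, Fdxr, Gapdh, Gmnn, Irf7, Isg15, Lamp2, Lig1, Lipa, Mcm6, Mre11a, Pcna, Pmaip1, Scd2, Slc2a1, Srebf2, Tk1, Tyms and Zmat3 were chosen after their values were seen. Some named genes are not reported here. Gene positions and promoters (250 bases before to 50 after a start) come from RefSeq, GRCm38.p6. The smallest chi-square per gene between tumours of the same coded group was 13.0, so no tumour was counted as a copy of another in its group. Tumours of different groups were not compared in this way.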

Additional observations from a re-analysis of the deposited data

Results flagged for a closer look

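Twist2, a mesenchymal transcription factor gene, differed in opposite directions in the vector and miR-21-5p lines, without overlap in either, which is why it is set out here. In vector tumours it had 21.1, 24.9 and 23.7 CPM under the combination and 35.1, 36.6 and 36.8 CPM under sham, a log2 fold change of -0.64. In the miR-21-5p line it had 35.2, 35.7 and 34.8 CPM under the combination and 26.6, 29.04 and 26.5 CPM under sham, a log2 fold change of 0.36. The difference between the lines did not pass edgeR's quasi-likelihood test over all genes (adjusted p = 0.12).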

How the results depend on the processing

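Against 873 genes called higher and 1253 lower, the combination and sham tumours fitted alone gave 1488 higher and 1598 lower. DESeq2 gave 1614 and 1919, no filter on low counts 483 and 691, and limma with sample weights 3490 and 3429. Leaving out 1 of the 6 tumours gave 82 to 779 higher and 61 to 1188 lower. Leaving out S-761 and EIO-744 together, an alternative chosen after seeing the data, kept both counts within 1.5 times. DESeq2 size factors also did. For the combination against olaparib, DESeq2 gave about 7.3e+02 higher and 700 lower, no filter 41 and 42, limma with weights 2532 and 2559, leave-outs 0 to 28 and 1 to 34, the fit without S-761 and EIO-744 gave 871 and 1279, and the fit without I-739, also chosen after seeing the data, 693 and 534. DESeq2 called 3 genes against radiation alone and 1 for additivity. In the miR-21-5p line DESeq2 gave 1972 higher and 829 lower, no filter 840 and 233, and limma with weights 1216 and 1123. Leave-outs there gave 0 to 2372 higher and 0 to 1299 lower. The fit without S-761 and EIO-744 gave 267 and 143, and the fit without I-739 gave 1579 and 789. For the difference between lines DESeq2 called 185, limma with weights 633, leave-outs 0 to 58, and the fit without both tumours 14. The cause of these shifts was not tested. With the groups formed from the written labels 0 genes were called in either direction, and 93 of the 146 named genes changed sign. Their log2 fold changes were Abcb1a -0.89, Abcc5 -0.12, Abcg1 -0.27, Bax -0.15, Bbc3 -0.015, Bcl2l1 -0.65, Btc -2.13, Ccng1 -0.51, Cd274 -0.34, Cd5l -0.22, Cd80 -1.13, Cdkn1a -0.44, Chil3 -0.56, Ctsd -0.46, Cxcl10 -0.040, Dclre1c -0.19, Hif3a -0.26, Ifi203 -0.41, Ifi204 -0.29, Impact -0.23, Inka2 -0.59, Irf7 -1.08, Isg15 -0.66, Lamp2 -0.044, Lipa -0.20, Mdm2 -1.31, Mertk -0.93, Oas2 -0.31, Parp14 -0.40, Phlda3 -0.31, Sesn2 -0.59, Tbk1 -0.21, Timp2 -0.25, Trim30a -0.26, Vmp1 -0.29, Zeb2 -0.087, Zmat3 -0.15 for those higher by code, and Ak5 1.10, Aldoc 0.82, Brca1 0.073, Brca2 0.028, Cacna2d2 2.35, Ccr9 0.56, Cd3e 1.11, Cd6 0.79, Cd7 1.05, Cd8a 0.57, Cdkn2a 1.33, Cdt1 0.10, Cx3cr1 1.22, Cyp51 0.50, E2f1 0.024, E2f2 0.16, Elovl6 0.73, Erbb2 0.24, Faap100 0.26, Fads2 1.25, Fdps 0.50, Fdxr 0.38, Hmgcs1 0.044, Hpf1 0.019, Krt18 0.44, Lig1 0.28, Lig3 0.079, Lmnb1 0.48, Mcm6 0.31, Mus81 0.064, Mvk 0.28, Neil3 0.18, Pacsin1 1.21, Parp1 0.36, Parp2 0.058, Pcna 0.16, Pkmyt1 0.64, Polq 0.20, Rhno1 0.021, Rpa2 0.16, Rpl3 0.023, Sc5d 0.15, Scd2 0.40, Siglech 0.81, Sqle 0.13, Srebf2 0.21, Timeless 0.25, Tipin 0.061, Tk1 0.46, Twist2 0.31, Tyms 0.42, Ung 0.81, Usp1 0.084, Xrcc1 0.024, Xrcc3 0.78, Xrcc6 0.070 for those lower by code. Other sign changes were confined to genes that were not called: Bax at -0.13 to 0.17 with tumours left out, Isg15 at -0.011 to 0.42 with tumours left out, Cxcl10 at -0.031 by limma with weights, -0.24 to 0.50 with tumours left out and -0.21 without S-761 and EIO-744, and Col3a1 at -0.049, -0.28 to 0.34 and -0.25 in the same order. No paired analysis was possible because the identifier numbers are not shared between groups. Depth differed little between tumours, at 37099055 to 40004502 counts, and the values of genes with few counts are the least precise.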

Other observations

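Some genes that handle drugs and matrix also differed between the combination and sham tumours. The counts of calls in this paragraph stand beside 5.27% called higher and 7.57% called lower over all genes tested. No list was tested against those shares. Abcb1a, which encodes P-glycoprotein, an exporter of olaparib, had 35.5, 33.2 and 30.4 CPM in the combination tumours, against 16.7, 17.3 and 17.2 CPM in the sham tumours (log2 fold change 0.95 ± 0.29, edgeR adjusted p = 0.037). Of the 8 drug efflux genes Abcc5 was also called higher (0.69 ± 0.14) and Abcc1 lower (-0.39 ± 0.12). Matrix metalloproteinases and their inhibitors had 3 of 16 genes called higher and 0 lower. Mmp19 had 108, 64.4 and 66.4 CPM under the combination and 14.9, 11.7 and 12.7 CPM under sham (log2 fold change 2.60 ± 0.69, edgeR adjusted p = 0.023), and the inhibitor gene Timp2 had 2684, 2411 and 2665 CPM under the combination and 1373, 1325 and 1092 CPM under sham (log2 fold change 1.03 ± 0.23, edgeR adjusted p = 0.012). Among genes of epithelial and mesenchymal state 2 of 21 were called higher, including the repressor gene Zeb2 (log2 fold change 1.33 ± 0.29, edgeR adjusted p = 0.011), and 1 lower, Twist2 (log2 fold change -0.64 ± 0.16, edgeR adjusted p = 0.018). The senescence list had 2 of 27 called higher and 3 lower, against 5.27% and 7.57% of all genes. The lower ones included Cdkn2a (log2 fold change -2.94) and the lamin gene Lmnb1. Lmnb1 had 25.8, 60.4 and 33.9 CPM under the combination and 163, 129.9 and 116 CPM under sham (log2 fold change -1.77 ± 0.46, edgeR adjusted p = 0.021). Literature targets of miR-21-5p had 4 of 39 called higher and 4 lower, against 5.27% and 7.57% of all genes. Of 13 genes of EGF receptor ligands and receptors, Btc was called higher (2.26 ± 0.65) and Erbb2 lower (-0.53 ± 0.17). Genes of the NRF2 and glutathione list had 1 of 24 called higher, Nfe2l2 (0.64 ± 0.19), and 4 lower, including Gsr (-0.86 ± 0.22). Schwann cell markers had 3 of 13 called higher and 0 lower. Immediate early genes had 0 of 19 called by edgeR and 1 by DESeq2, and 4 had an unadjusted p under 0.05. Heat shock genes had 0 of 10 called by edgeR and 1 by DESeq2, and 3 had an unadjusted p under 0.05. Apoptosis regulators had 4 of 26 called higher and 0 lower, acute inflammation genes 2 of 27 higher, mast cell markers 1 of 10 higher, conventional dendritic cell markers 1 of 16 higher and 2 lower, and pericyte markers and TGF-beta response genes 1 lower each, of 10 and 23. Erythroid, cornified keratinocyte and B cell markers had 0 called by edgeR of 7, 16 and 13, with 2, 0 and 2 at an unadjusted p under 0.05 and 1, 0 and 1 called by DESeq2. Among the 12 called genes named here other than Cdkn2a the losses were 11 without IO-726, 3 without IO-728, 11 without IO-731, 9 without S-758, 4 without S-759 and 11 without S-761, and 1 without S-761 and EIO-744 together.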
